A study of Mus musculus with 4 samples.

Results

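The interferon-inducible GTPases described here are 6 genes of the immunity-related GTPase (IRG) family, Iigp1, Irgm1, Irgm2, Igtp, Tgtp1 and Tgtp2, and 4 genes of the guanylate-binding protein (GBP) family, Gbp2, Gbp3, Gbp6 and Gbp7. They were found by gene symbol and are 10 of the 54532 genes of the count table. The list was selected on fold changes in these same libraries, so every level and fold change below is a description and carries no test. In all, 9 of the 10 genes had a mean of at least 1 CPM (counts relative to the library total, scaled between libraries) over the 4 libraries, the level set for a gene to be compared, and are called tested genes, as are 13233 of the 54532 genes of the whole table. Gbp6, with a mean of 0.800 CPM, was the exception. Its values are given with the others and are part of summed counts and of shares of them. It enters no median, and it enters counts of genes past a fold only where no filter was applied.

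To follow DNMT1 depletion before and during osteoblast (OB) differentiation, mRNA had been sequenced from C3H10T1/2 cells, an established mouse line with the properties of mesenchymal stem cells. All cells received an siRNA for 48 h. The control library came from cells given control siRNA, and the siDNMT1 library from cells given siRNA against DNA methyltransferase 1, which maintains methylation at CpG sites when cells divide. The OB and siDNMT1_OB libraries came from cells given the control or the DNMT1 siRNA and then kept for 3 days in induction medium with ascorbic acid (50 µM), glycerophosphate (10 mM) and dexamethasone. Each group held 1 library of 1 cell line, so no difference has a replicate check. The intervals are exact 95% intervals of the read counts, which cover counting error only.

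The total counts lay between 22296046 (OB) and 27367792 (control), and the 20 most abundant genes held 8.77% to 10.6% of them. As a check of the labels, Dnmt1 had 7195 counts in control and 3375 in siDNMT1, against 1931 in OB and 2492 in the library labelled siDNMT1_OB. Its log2 fold change was −1.01 (−1.07 to −0.95) in siDNMT1 against control, whereas it was 0.13 (0.04 to 0.21) in the library labelled siDNMT1_OB against OB. Within the OB cells, the siDNMT1-labelled library thus did not hold less Dnmt1 mRNA, and its label rests on the submitters' word in each comparison below. The 8 mesenchymal markers, among them Col1a1 and Pdgfra, had counts in every library. Pdgfra was higher with OB induction, by a log2 fold change of 2.47 (2.41 to 2.52) in OB against control. In siDNMT1_OB against siDNMT1, it was 1.56 (1.50 to 1.61) for Pdgfra and 1.22 (1.08 to 1.37) for Thy1. The other markers of this list changed by a log2 fold change of less than 1 in these comparisons. Of 8 macrophage markers, Spi1, Tyrobp and Adgre1 were at 0 in every library, and the list summed to 11 CPM in control and 7.85 in siDNMT1, against 9.20 in OB and 9.42 in siDNMT1_OB. Cd14 made up most of each sum. Lyz2 had 8, 6, 24 and 17 counts in control, siDNMT1, OB and siDNMT1_OB, and Csf1r had 11, 6, 13 and 21. Lyz2 had a log2 fold change of 1.61 (0.65 to 3.21) in OB against control, where the sum was lower, and Csf1r one of 1.47 (0.39 to 3.34) in siDNMT1_OB against siDNMT1, where the sum was higher. The 5 T and NK cell markers summed to 1 to 3 counts per library. Of the 4 endothelial markers, Pecam1 had 3 to 8 counts and Cdh5 0 to 3, and the list summed to 2.25 CPM in control and 6.21 in siDNMT1, against 3.18 in OB and 7.81 in siDNMT1_OB, nearly all of it Tek. The part in the levels below of cells that express Pdgfra, Thy1, Tek, Lyz2 or Csf1r was not tested. In bulk RNA, more cells that express a gene and more RNA per cell cannot be told apart.

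IRG and GBP proteins are GTPases that mouse cells make in large amounts after interferon exposure and that defend the cell from within. They gather on the vacuoles of intracellular parasites and bacteria and break them open. Among the IRG proteins, Irgm1, Irgm2 and Igtp are regulators that sit on the cell's own membranes and hold the effectors inactive there, whereas Iigp1 and the paired Tgtp1 and Tgtp2 proteins are effectors that load onto the pathogen vacuole. GBP proteins are larger, dynamin-like GTPases that coat vacuoles and free bacteria and help to trigger inflammasomes. Interferon acts on such genes through the interferon-stimulated response element (ISRE), which is bound by a complex that contains IRF9 and by other IRF factors, and through the gamma-activated site (GAS), through which interferon gamma acts.

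The promoters were examined first, since the choice of genes did not use their sequences. As the genes are known to be interferon-inducible, matches to the ISRE and GAS describe them and are no test. RefSeq windows of 300 bases on GRCm38.p6, from 250 bases before to 50 bases after a transcription start, were used for 8 of the 10 genes, called below the genes with a window. Iigp1 and Gbp6 had none. The letters GAAANNGAAA, or TTTCNNTTTC on the other strand, were searched for the ISRE, and TTCNNNGAA, which reads the same on both strands, for the GAS. No ISRE match overlapped a GAS match in these windows. Below are the 100 bases that end 11 bases before the start of the 5 IRG genes with a window, chosen because they hold every match in those windows. They are read 5′ to 3′ along the gene, with the matched letters in capitals.
Irgm1 (chr11:48871431-48871530, minus strand): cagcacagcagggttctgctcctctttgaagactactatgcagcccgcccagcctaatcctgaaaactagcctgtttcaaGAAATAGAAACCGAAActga
Irgm2 (chr11:58214867-58214966, plus strand): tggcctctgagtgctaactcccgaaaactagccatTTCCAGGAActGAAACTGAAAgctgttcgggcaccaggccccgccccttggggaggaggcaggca
Igtp (chr11:58199446-58199545, plus strand): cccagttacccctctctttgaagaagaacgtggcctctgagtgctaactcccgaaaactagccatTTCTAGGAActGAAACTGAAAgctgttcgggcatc
Tgtp1 (chr11:48992257-48992356, minus strand): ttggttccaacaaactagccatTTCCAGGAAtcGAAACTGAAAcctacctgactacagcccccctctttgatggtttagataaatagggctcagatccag
Tgtp2 (chr11:49064223-49064322, minus strand): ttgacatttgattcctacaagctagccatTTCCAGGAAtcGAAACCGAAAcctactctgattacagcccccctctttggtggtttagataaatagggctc

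All 5 IRG promoters held the ISRE letters in the direction of the gene. In Irgm2, Igtp, Tgtp1 and Tgtp2, a GAS match preceded the ISRE match, and the first bases of both matches lay exactly 11 bases apart in each gene. The same arrangement was present in 5 of the 32851 windows of the mouse table (0.0152%). The spacing was read from these promoters before it was counted, and they are 4 of those 5 windows, so the share describes them and is no test. The remaining window was that of Gm12185, another IRG-like gene on chromosome 11, whose annotation overlaps that of Tgtp1. Irgm1 had no GAS match, and its 2 ISRE matches overlapped, starting 30 and 24 bases before the transcription start. The windows of Irgm2 and Igtp were 93.6% identical (247 of 264 aligned bases) and those of Tgtp1 and Tgtp2 83.3% (224 of 269). Between the pairs, the windows of Irgm2 and Tgtp1 were 73.8% identical (163 of 221), and the 4 promoters are not counted as separate cases. Irgm2 and Igtp, whose annotations overlap on the same strand, held the same ISRE letters, GAAACTGAAA. Tgtp2 differed from Tgtp1 within the ISRE in the unspecified bases, with GAAACCGAAA against GAAACTGAAA.

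The GBP promoters held the ISRE letters on the other strand. The same stretch is shown for the 3 GBP genes with a window, so that the turned motif can be set beside the IRG sequences.
Gbp2 (chr3:142620553-142620652, plus strand): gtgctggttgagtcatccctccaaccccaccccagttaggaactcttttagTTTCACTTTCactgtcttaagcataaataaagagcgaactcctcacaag
Gbp3 (chr3:142559934-142560033, plus strand): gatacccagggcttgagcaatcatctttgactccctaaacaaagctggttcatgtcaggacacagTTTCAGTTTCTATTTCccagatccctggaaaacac
Gbp7 (chr3:142530226-142530325, plus strand): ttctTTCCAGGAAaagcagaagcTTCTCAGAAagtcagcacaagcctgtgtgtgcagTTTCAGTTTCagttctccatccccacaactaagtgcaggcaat

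In Gbp2 and Gbp7 there was 1 ISRE match, 59 and 53 bases before the start, and in Gbp3 there were 2 overlapping matches, at 45 and 39 bases. These are the positions of the first matched base along the gene. A second window of Gbp3, from another annotated start, held no match to either motif. Gbp7 alone among the 3 had GAS matches, 2 of them, at 106 and 87 bases before the start. Across both families, all 8 genes with a window had an ISRE match within 100 bases before a start, against 1.07% of all windows. This limit was set after the positions were seen and counts a gene with any matching window, so the shares stand side by side as a description. In windows of the full 300 bases, the ISRE letters were present in 3.44% of all windows and the GAS letters in 8.30%. A GAS match was present in 5 of the 8 genes, and the same 5 held both motifs, against 0.454% of all windows. A match describes letters only, and binding was not measured here.

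**Figure D1:**
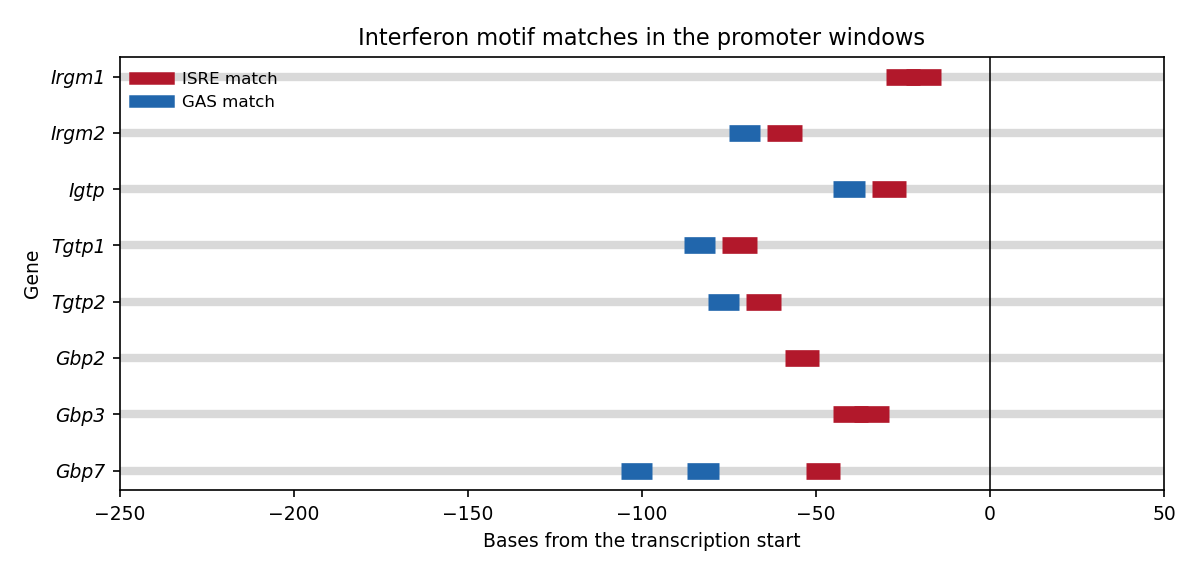
Matches to the ISRE (red) and GAS (blue) letters in the promoter windows of the 8 genes with a RefSeq window, by position in bases from the transcription start (0). Every ISRE match lies within 100 bases before the start, and Irgm2, Igtp, Tgtp1 and Tgtp2 have a GAS match whose first base lies 11 bases before that of the ISRE match.

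The promoters differed in CpG content, the sequence on which DNMT1 acts. The Tgtp1 window held 1 CpG, and those of Tgtp2, Gbp2 and Gbp3 held 2 each. Gbp7 held 8, Irgm2 and Igtp held 9 each, and Irgm1 held 11. The median over all windows was 7, with quartiles of 3 and 20. Methylation at these CpG sites was not analysed here.

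The level of the regulatory IRG genes was led by Irgm1 (ENSMUSG00000046879, chr11:48861968-48871683, minus strand). Per kilobase of exon, Irgm1 was the most abundant of the 10 genes in each library, from 6.64 CPM per kb in control to 17.0 in siDNMT1_OB, and it held 61.2% of the counts of the 10 genes in control and 37.1% in OB. Irgm1 had 1047, 2196, 1337 and 2644 counts in control, siDNMT1, OB and siDNMT1_OB, or 38.6, 85.7, 59.1 and 98.8 CPM. Both DNMT1 siRNA libraries stood above both control siRNA libraries, and no 2 counting intervals overlapped. The log2 fold change of Irgm1 was 1.15 (1.04 to 1.26) in siDNMT1 against control and 0.74 (0.65 to 0.84) in siDNMT1_OB against OB. With OB induction it was 0.61 (0.50 to 0.73) after control siRNA and 0.20 (0.12 to 0.29) after DNMT1 siRNA.

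Irgm2 (ENSMUSG00000069874, chr11:58199618-58222782, plus strand), whose product restrains effectors on Golgi membranes, had 39 counts in control, 114 in the siDNMT1 library, 285 in OB and 342 in siDNMT1_OB. The levels were 1.44, 4.45, 12.6 and 12.8 CPM, so that control was lowest, siDNMT1 lay between, and the OB libraries were alike within counting error. The log2 fold change of Irgm2 was 1.58 (1.09 to 2.19) in siDNMT1 against control, 3.06 (2.65 to 3.65) in OB against control and 1.51 (1.21 to 1.84) in siDNMT1_OB against siDNMT1. Between siDNMT1_OB and OB it was 0.02 (−0.21 to 0.25).

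Igtp (ENSMUSG00000078853, chr11:58199556-58207591, plus strand), the third regulator, found on endoplasmic reticulum and lipid droplets, followed the same order. It had 59, 166, 254 and 365 counts in control, siDNMT1, OB and siDNMT1_OB, or 2.18, 6.48, 11.2 and 13.6 CPM. Igtp was higher by 1.54 on the log2 scale (1.14 to 2.03) in siDNMT1 against control and by 2.33 (1.95 to 2.80) in OB against control. The difference was 1.06 (0.81 to 1.35) in siDNMT1_OB against siDNMT1 and 0.28 (0.05 to 0.52) in siDNMT1_OB against OB. The exons of Igtp and Irgm2 share 162 bases on the same strand, and 5.16% of the 100-base stretches of Igtp also occur in Irgm2, so that a small share of their reads could not be assigned to one gene.

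Among the effectors, Iigp1 (ENSMUSG00000054072, chr18:60376029-60392627, plus strand) showed the widest range of the 9 tested genes. It had 6 counts in control and 62 in siDNMT1, against 220 in OB and 180 in siDNMT1_OB, or 0.221, 2.42, 9.73 and 6.73 CPM. Control was lowest by far and rests on few reads, and the OB libraries stood highest. The log2 fold change of Iigp1 was 3.06 (2.25 to 4.95) in siDNMT1 against control and 5.03 (4.31 to 6.92) in OB against control. It was 1.45 (1.05 to 1.92) in siDNMT1_OB against siDNMT1. Iigp1 was lower in siDNMT1_OB than in OB, with a log2 fold change of −0.53 (−0.82 to −0.24).

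Tgtp1 (ENSMUSG00000078922, chr11:48985327-48994172, minus strand) and Tgtp2 (ENSMUSG00000078921, chr11:49057194-49064206, minus strand) encode near-identical effectors. Tgtp1 had 95, 323, 94 and 306 counts in control, siDNMT1, OB and siDNMT1_OB, or 3.50, 12.6, 4.16 and 11.4 CPM. Tgtp2 had 137, 467, 124 and 279 counts in the same order, or 5.05, 18.2, 5.48 and 10.4 CPM. In both genes the DNMT1 siRNA libraries stood above both control siRNA libraries, and control and OB were alike within counting error. This was a different order from that of Irgm2, Igtp and Iigp1, in which both OB libraries were highest.

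For Tgtp1 the log2 fold change was 1.82 (1.51 to 2.19) in siDNMT1 against control and 1.44 (1.12 to 1.81) in siDNMT1_OB against OB. For Tgtp2 it was 1.84 (1.57 to 2.14) and 0.92 (0.62 to 1.24). In OB against control it was 0.24 (−0.18 to 0.67) for Tgtp1 and 0.12 (−0.24 to 0.48) for Tgtp2, and in siDNMT1_OB against siDNMT1 it was −0.14 (−0.37 to 0.09) and −0.80 (−1.03 to −0.59). The copies share most of their sequence, as 73.1% of the 100-base stretches of Tgtp1 and 76.8% of those of Tgtp2 occur in another annotated gene, mainly the other copy. How the authors' counting assigned such reads was not stated, so the split between the copies is uncertain. With the counts of both summed (232, 790, 218 and 585), the log2 fold changes were 1.84 (1.64 to 2.07) in siDNMT1 against control, 1.17 (0.95 to 1.41) in siDNMT1_OB against OB, 0.17 (−0.10 to 0.45) in OB against control and −0.49 (−0.65 to −0.34) in siDNMT1_OB against siDNMT1.

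**Figure D2:**
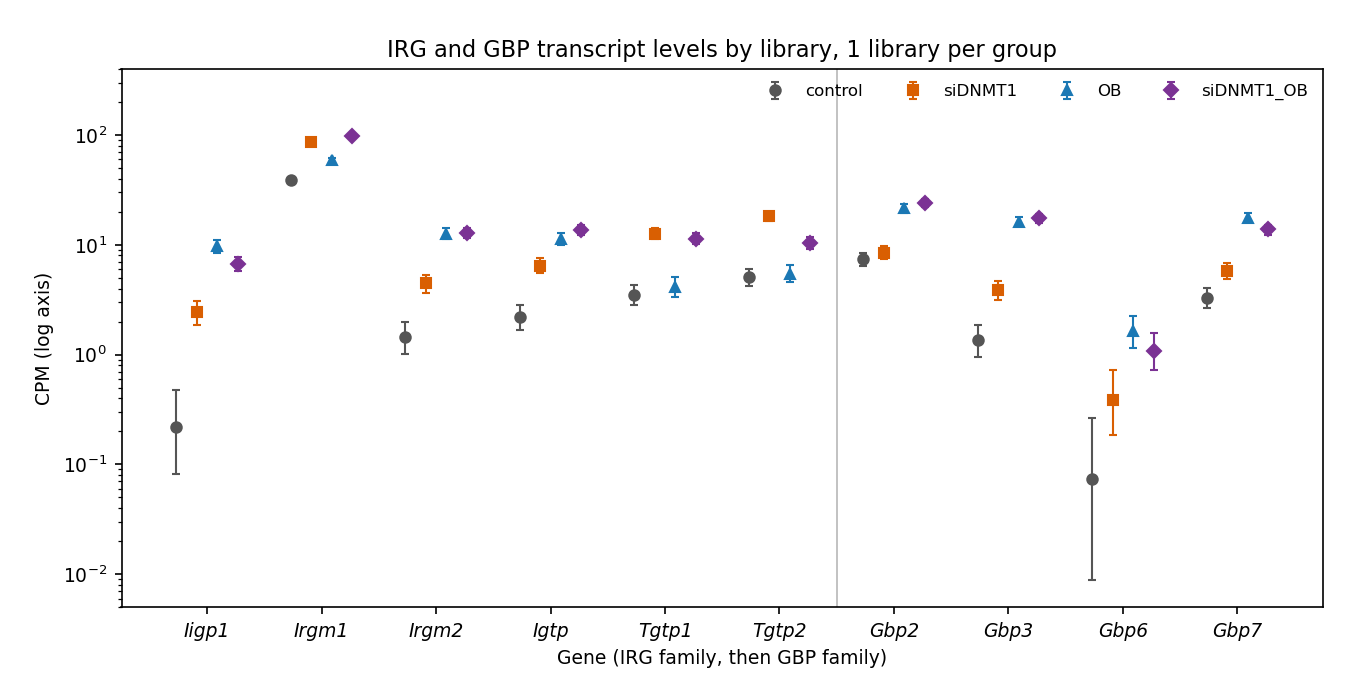
CPM on a log axis for each gene in control (circles), siDNMT1 (squares), OB (triangles) and siDNMT1_OB (diamonds), 1 library each, with exact 95% intervals of the counts as bars. Tgtp1 and Tgtp2 are high in siDNMT1 and siDNMT1_OB, whereas Iigp1, Irgm2, Igtp and the 4 GBP genes are highest in the OB libraries.

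Tgtp1, Tgtp2 and Irgm1 lie within 202 kb of chromosome 11 (48861968 to 49064206), a stretch that holds 9 annotated genes in full, of which 8 were tested. The genes between them, taken by position, did not share one order of levels. Gm12185, with the same paired motifs as Tgtp1, had 31 counts in control, 60 in the siDNMT1 library, 18 in OB and 39 in siDNMT1_OB, and 223 exon bases of Tgtp1 lie in its annotation. Its log2 fold change was 0.99 (0.39 to 1.71) in siDNMT1 against control and 0.81 (0.03 to 1.77) in siDNMT1_OB against OB. The IRG-like gene 9930111J21Rik2 had 2468, 2303, 918 and 1405 counts in control, siDNMT1, OB and siDNMT1_OB. For 9930111J21Rik2 the log2 fold change was −0.02 (−0.10 to 0.06) in siDNMT1 against control and −1.16 (−1.28 to −1.05) in OB against control. Its neighbour 9930111J21Rik1 had 1036, 1046, 408 and 662 counts, a like order, and Gm5431 had 44, 50, 13 and 13. Psme2b, a proteasome activator gene, had 84, 109, 51 and 74 counts, and the pseudogene Gm12186 had 1 to 2 counts per library. Olfr56, an olfactory receptor gene on the plus strand, extends beyond this stretch and spans Tgtp1 and Tgtp2 without sharing an exon base with either. It had 18, 27, 68 and 73 counts in control, siDNMT1, OB and siDNMT1_OB, higher in both OB libraries.

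**Figure D3:**
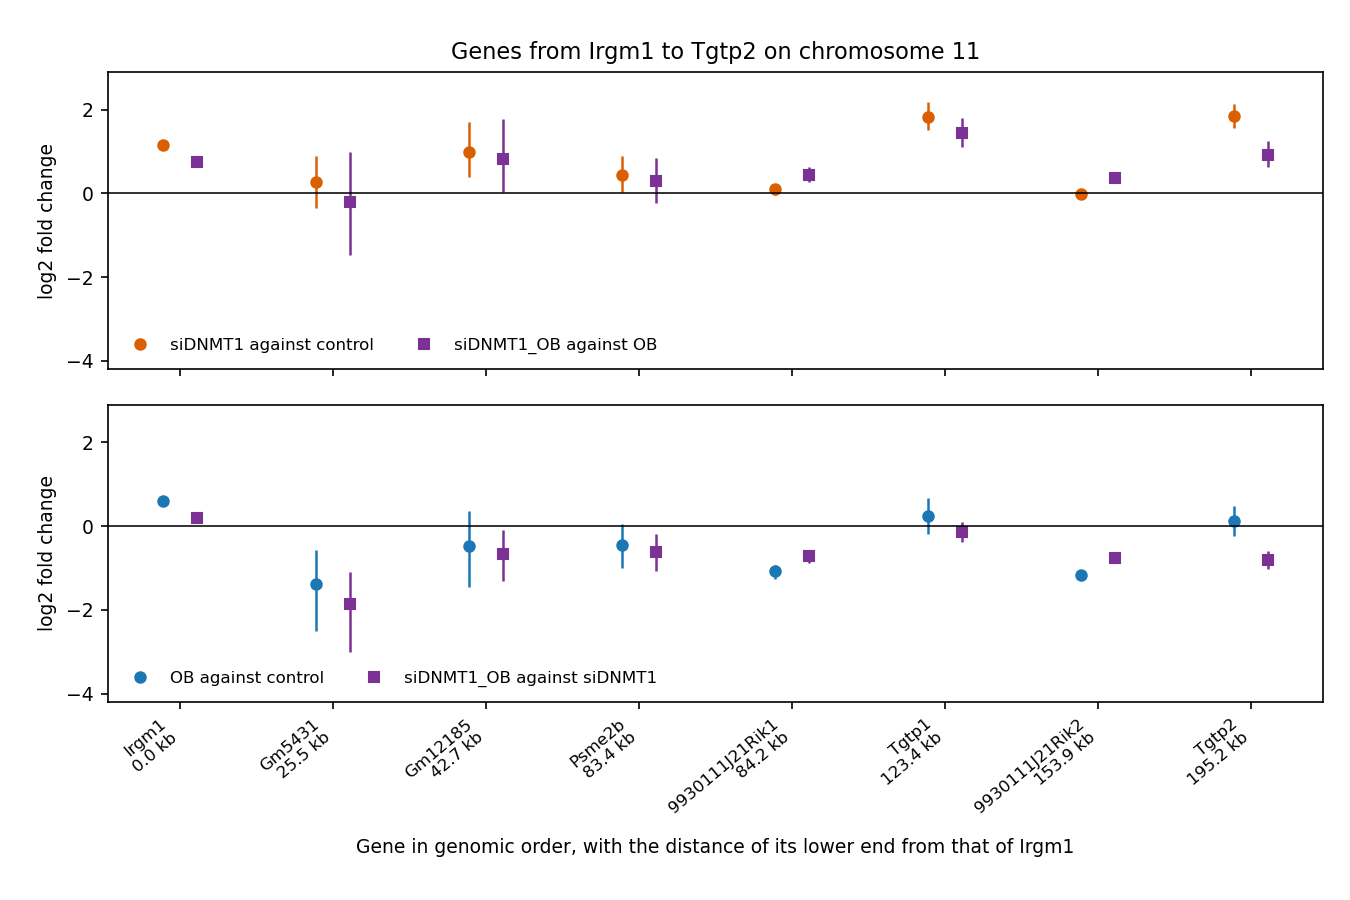
Log2 fold changes (points) with 95% counting intervals (bars) of the 8 tested genes that lie in full between the ends of Irgm1 and Tgtp2, in genomic order, each with the distance in kb of its lower end from that of Irgm1, for the DNMT1 siRNA comparisons (upper panel) and the OB comparisons (lower panel). In siDNMT1 against control, Tgtp1 and Tgtp2 lie at 1.82 and 1.84 and 9930111J21Rik2, between them, at −0.02.

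Of the GBP genes, Gbp2 (ENSMUSG00000028270, chr3:142620602-142638008, plus strand), a lipid-anchored protein that coats vacuoles, was the most abundant per kilobase in every library, from 2.95 CPM per kb in control to 9.57 in siDNMT1_OB. Gbp2 had 201 counts in control and 217 in siDNMT1, against 487 in OB and 644 in siDNMT1_OB, or 7.41, 8.47, 21.5 and 24.1 CPM. The counting intervals of control and siDNMT1 overlapped, as did those of OB and siDNMT1_OB, and both OB libraries stood above both others. The log2 fold change of Gbp2 was 0.19 (−0.09 to 0.48) in siDNMT1 against control and 0.16 (−0.01 to 0.33) in siDNMT1_OB against OB. With OB induction it was 1.53 (1.30 to 1.78) after control siRNA and 1.50 (1.28 to 1.74) after DNMT1 siRNA.

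Gbp3 (ENSMUSG00000028268, chr3:142560026-142573209, plus strand) lies in the same cluster and had 37, 99, 369 and 466 counts in control, siDNMT1, OB and siDNMT1_OB. At 1.36, 3.86, 16.3 and 17.4 CPM, control was lowest, siDNMT1 lay between, and the intervals of the OB libraries overlapped. For Gbp3 the log2 fold change was 1.45 (0.94 to 2.09) in siDNMT1 against control, 3.51 (3.09 to 4.11) in OB against control, 2.15 (1.86 to 2.50) in siDNMT1_OB against siDNMT1 and 0.09 (−0.11 to 0.29) in siDNMT1_OB against OB.

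Gbp7 (ENSMUSG00000040253, chr3:142530342-142550149, plus strand), known for helping to assemble the oxidase that makes superoxide at vacuoles, had 89, 149, 399 and 369 counts in control, siDNMT1, OB and siDNMT1_OB, or 3.28, 5.82, 17.6 and 13.8 CPM. It was the GBP gene whose OB library stood clear above siDNMT1_OB. Gbp7 differed by a log2 fold change of 0.81 (0.44 to 1.22) in siDNMT1 against control and −0.35 (−0.56 to −0.15) in siDNMT1_OB against OB. With OB induction it was 2.40 (2.09 to 2.77) after control siRNA and 1.23 (0.97 to 1.53) after DNMT1 siRNA. In the annotation, 637 exon bases of Gbp7 also belong to Gm43802, which had no count in any library.

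Gbp6 (ENSMUSG00000104713, chr5:105270702-105293698, minus strand), from the second GBP cluster, had 2 counts in control, 10 in the siDNMT1 library, 37 in OB and 29 in siDNMT1_OB, or 0.0737 to 1.64 CPM. Its level per kilobase was the lowest of the 10 genes in every library. The ratio of Gbp6 to control was 5.29 (1.13 to 49.7) in siDNMT1 and 22.2 (5.72 to 190) in OB, with intervals this wide because control held 2 counts. Its log2 fold change was −0.56 (−1.35 to 0.15) in siDNMT1_OB against OB and 1.31 (0.40 to 2.67) in siDNMT1_OB against siDNMT1. As 64.5% of its 100-base stretches recur in Gm43302, Gbp10 and other GBP genes, its counts are uncertain.

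Set side by side, the families had different levels in the 4 libraries. The IRG genes summed to 51.0 CPM in control and 130 in siDNMT1, against 102 in OB and 154 in siDNMT1_OB, and the GBP genes to 12.1, 18.5, 57.1 and 56.4 CPM. The IRG sum was thus higher in siDNMT1 than in OB, whereas the GBP sum was higher in OB than in siDNMT1. This did not hold for each IRG gene, as Iigp1, Irgm2 and Igtp were, like the GBP genes, higher in OB than in siDNMT1. In siDNMT1 against control, the summed counts of the IRG genes gave a log2 ratio of 1.35 (1.26 to 1.44) and those of the GBP genes 0.61 (0.41 to 0.82). In OB against control, the ratios were 1.00 (0.91 to 1.10) and 2.24 (2.06 to 2.41). Irgm1 held the most counts of the IRG sum in every library, 2196 of 3328 in siDNMT1.

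A log2 fold change of at least 1 in size, the fold size used in the study, was the measure for counts of genes. In siDNMT1 against control, 7 of the 9 tested genes were past that fold and higher, namely the 6 IRG genes and Gbp3, and 0 were lower. Among all 13233 tested genes, 1.97% were past it and higher and 1.37% lower. The median of the 9 genes was 1.54 and that of all tested genes −0.0014. In siDNMT1_OB against OB, 1 of the 9 (Tgtp1) was past the fold and higher and 0 lower, with 2.36% and 1.37% of all tested genes. The median of the 9 was 0.16, against 0.013 over all genes.

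In OB against control, 6 of the 9 were past the fold and higher, Iigp1, Irgm2, Igtp, Gbp2, Gbp3 and Gbp7, and 0 lower. That comparison moved far more of the transcriptome, with 10.6% of all tested genes higher and 7.10% lower. The medians were 2.33 for the 9 genes and 0.0083 for all. In siDNMT1_OB against siDNMT1 the count was again 6 higher and 0 lower, with 6.83% and 2.71% of all tested genes, and medians of 1.23 and 0.0010. As the genes were chosen with these fold changes known, nothing is read from the gap to the background.

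**Figure D4:**
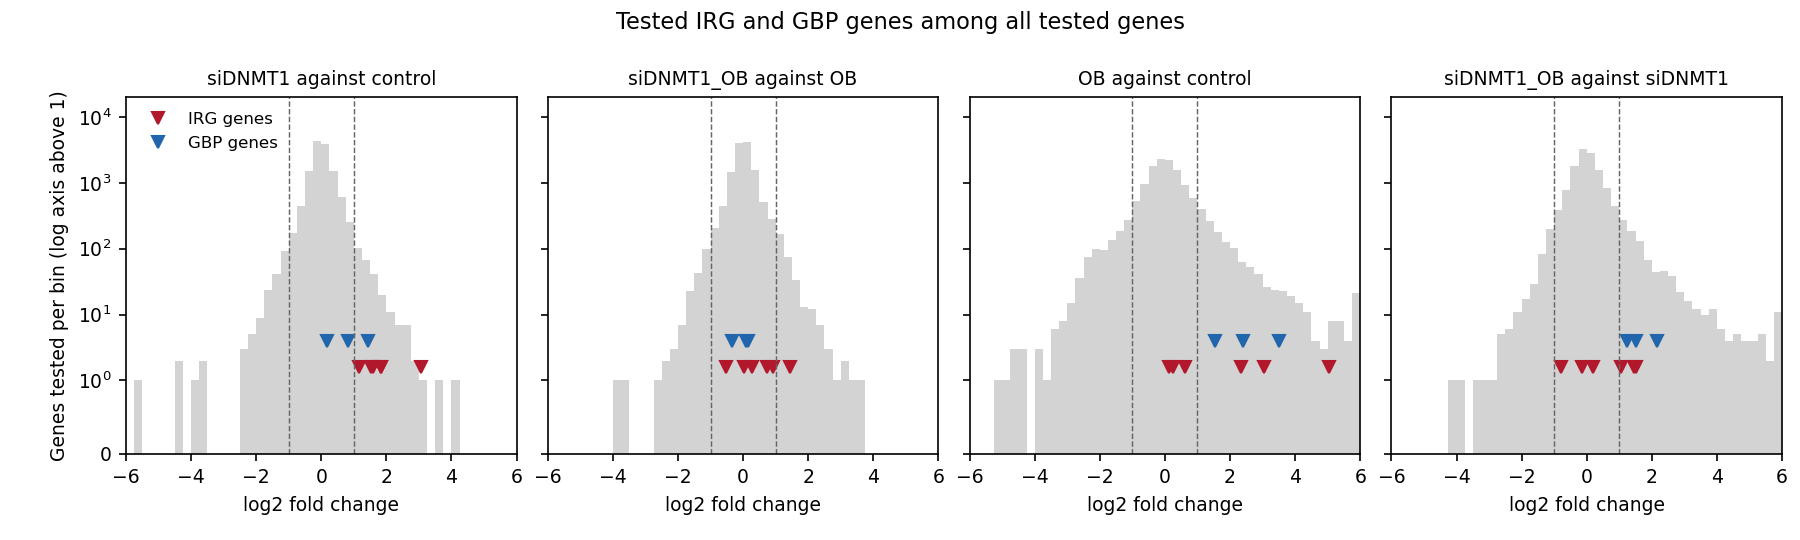
Histograms of log2 fold changes of all 13233 tested genes in the 4 comparisons (grey, number of genes per bin on a log axis above 1, values past the axis limits in the end bins), with the 6 IRG genes (red) and 3 tested GBP genes (blue) as triangles and dashed lines at a log2 fold change of 1 in size. The IRG genes all lie past the right line in siDNMT1 against control, and the GBP genes all lie past it in both OB comparisons.

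The DNMT1 siRNA comparisons in untreated and OB cells share no library. For each of the 9 tested genes the siDNMT1_OB to OB difference was smaller than the siDNMT1 to control difference. The log2 fold change in OB cells minus that in untreated cells was −0.03 for Gbp2, −0.38 for Tgtp1 and −0.41 for Irgm1, and −0.92 for Tgtp2. It was −1.16 for Gbp7, −1.26 for Igtp, −1.36 for Gbp3, −1.56 for Irgm2 and −3.59 for Iigp1. With 1 library per group these gaps were not tested, nor was the part in them of the Dnmt1 level of the library labelled siDNMT1_OB.

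**Figure D5:**
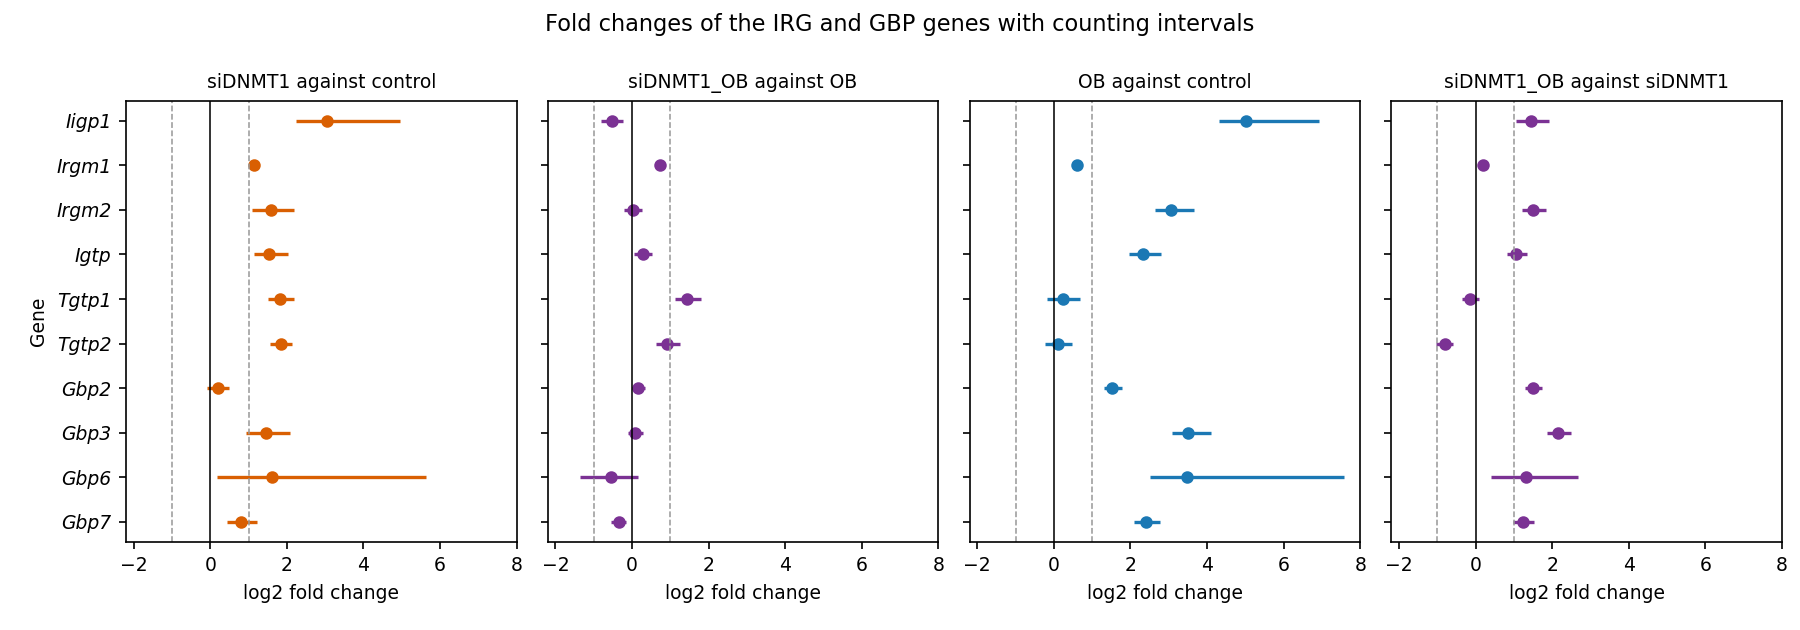
Log2 fold changes (points) with exact 95% counting intervals (bars) of the 10 genes in the 4 comparisons, with dashed lines at a log2 fold change of 1 in size. Gbp6 rests on 2 counts in control, and in siDNMT1_OB against OB only Tgtp1 lies past the dashed line.

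The genes around the 2 families were taken from lists written from general knowledge with earlier results of these data known. Their counts are to be set beside the shares of all tested genes past the fold. These shares were 1.97% higher and 1.37% lower in siDNMT1 against control, and 2.36% and 1.37% in siDNMT1_OB against OB. They were 10.6% and 7.10% in OB against control, and 6.83% and 2.71% in siDNMT1_OB against siDNMT1. Of 19 other IRG, GBP and interferon-inducible large GTPase genes, 10 were tested, and 2 were past the fold and higher in siDNMT1 against control (Gbp9 and Mx2). In siDNMT1_OB against OB none of the 10 was. In OB against control 5 were higher and 3 lower, and in siDNMT1_OB against siDNMT1 4 were higher and 1 lower. The medians of the list were 0.33, 0.11, 0.76 and 0.44 in these comparisons. Mx2, an antiviral dynamin-like GTPase, had 22 counts in control and 150 in siDNMT1, against 234 in OB and 325 in siDNMT1_OB, with log2 fold changes of 2.74 (2.20 to 3.57) in siDNMT1 against control and 3.55 (3.04 to 4.38) in OB against control. Gbp9 had 12, 50, 84 and 94 counts in the same order of libraries. Gm4951, an IRG gene, had 3, 3, 54 and 39 counts, a ratio of 21.6 (7.0 to 108) for OB against control, and Gm5431 was lower with OB induction, by a log2 fold change of −1.38 (−2.51 to −0.58) after control siRNA. Of 8 such genes with a promoter window, 5 held the ISRE letters and 3 the GAS letters, all 3 of them among those 5.

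Of 14 tested receptors, kinases and transcription factors of the interferon pathway, 3 were past the fold and higher in siDNMT1 against control (Irf7 and Irf9 among them), 0 in siDNMT1_OB against OB, 5 in OB against control and 1 in siDNMT1_OB against siDNMT1 (Irf7), and 0 were lower in any. The list medians were 0.18, 0.05, 0.25 and 0.15. Irf9, the DNA-binding part of the ISRE complex, had 491, 1418, 1518 and 2335 counts in control, siDNMT1, OB and siDNMT1_OB. Irf7, which drives interferon production, had 61, 186, 310 and 416 counts. Both genes were lowest in control and highest in siDNMT1_OB by count.

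For Irf9 the log2 fold change was 1.61 (1.46 to 1.76) in siDNMT1 against control and 1.89 (1.74 to 2.04) in OB against control. Nlrc5, an activator of MHC class I genes, had 35, 65, 80 and 107 counts in the 4 libraries. Irf1, which also binds the ISRE and is an early target of interferon gamma, did not share this order, with 1008, 944, 777 and 921 counts and a log2 fold change of −0.01 (−0.14 to 0.12) in siDNMT1 against control. The receptor gene Ifngr1 had 1019, 921, 929 and 1056 counts. No interferon gene of the 5 listed passed the filter. Ifnb1 had 1, 0, 2 and 0 counts, and Ifng, Ifna4, Ifnl2 and Ifnl3 had 0 in every library. The floor of 3 counts, set for a library with a count of 0, corresponds to 0.111 to 0.133 CPM.

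Of 5 tested inhibitors of interferon signalling, Usp18, which restrains the type I receptor, was past the fold and higher in 3 comparisons. It had 25 counts in control, 158 in the siDNMT1 library, 184 in OB and 412 in siDNMT1_OB, and its log2 fold change in siDNMT1_OB against OB was 0.91 (0.67 to 1.18). Socs1, an inhibitor of JAK kinases, had 355, 245, 145 and 157 counts in the same order, and its log2 fold change in OB against control was −1.02 (−1.32 to −0.75). A further list held autophagy conjugation genes, which mark the vacuoles that IRG and GBP proteins target, together with Sqstm1 and Traf6. None of its 12 tested genes was past the fold in any of the 4 comparisons, and their medians lay between −0.07 and 0.23. With 12 genes, 0 is near the shares of all tested genes in the DNMT1 siRNA comparisons, 1.97% and 2.36% higher and 1.37% lower in each. In the OB comparisons, 10.6% and 6.83% of all tested genes were higher and 7.10% and 2.71% lower, and nothing is read from the count.

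Among 5 tested inflammasome and cell death genes that act downstream of GBP proteins, 0 were past the fold in either DNMT1 siRNA comparison and 2 were higher in each OB comparison. With 5 genes, nothing is read from these counts against the shares of all tested genes given above. Casp4, the cytosolic sensor of bacterial lipopolysaccharide, had 28 counts in control and 31 in siDNMT1, against 81 in OB and 111 in siDNMT1_OB. Gsdmd, the pore-forming protein cut by such caspases, had 91, 96, 174 and 183. Aim2, a sensor of cytosolic DNA, had 23, 19, 26 and 48. The 14 tested dynamin superfamily genes that interferon does not induce served as a structural comparison. In both DNMT1 siRNA comparisons 0 of them were past the fold, with medians of 0.08 and −0.08. With 14 genes, 0 is near the shares of all tested genes in these comparisons, 1.97% and 2.36% higher and 1.37% lower in each. In siDNMT1_OB against siDNMT1 1 was higher (Ehd3), with a median of 0.20 and 6.83% of all tested genes higher. In OB against control 3 were higher, with a median of 0.06 and 10.6% of all tested genes higher. The largest of these was Ehd3, which acts in endosome recycling, at 190, 199, 2869 and 2469 counts.

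To find genes whose levels ran most like the family as a whole, each tested gene was compared with the median profile of the 9 tested genes over the 4 libraries, using log2 CPM centred on each gene's mean. The root mean square difference was smallest for 9130208D14Rik (0.049), Gm26816 (0.059), Phf11d (0.076), Slc24a3 (0.087) and Parp14 (0.094). 9130208D14Rik had 12, 29, 44 and 61 counts in control, siDNMT1, OB and siDNMT1_OB, and Gm26816 had 12, 32, 47 and 61. At such low counts the rank of these genes depends on counting error and is uncertain. Phf11d had 101, 224, 355 and 502 counts in control, siDNMT1, OB and siDNMT1_OB, and Parp14, an ADP-ribosyltransferase known as an interferon-stimulated gene, had 158, 331, 596 and 745. Among the 9 genes themselves the difference was smallest for Igtp (0.17) and Gbp7 (0.28), and largest for Iigp1 (1.12), Tgtp2 (0.98) and Tgtp1 (0.88). These distances rest on 4 libraries and describe order only.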

How the data were processed

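Poly(A) RNA was sequenced from 4 libraries of C3H10T1/2 cells, 1 per group as labelled. The authors trimmed reads with Trimmomatic, aligned them with HISAT2 and counted them per gene with featureCounts, per the study's methods and the submitters' processing notes, which name mm10. Versions, strand use and how multiply aligned reads were treated are not given in the sources used here. The deposited table held raw read counts with no normalization, in addition to the exon length used for levels per kilobase. Of 54409 genes shared with GENCODE M21 (GRCm38), 53499 (98.3%) matched the deposited table in position, including 9 of the 10 genes described, so coordinates are the table's.

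From these counts, TMM factors (0.991 to 1.01) were computed in edgeR 4.0.16 (R 4.3.3) on the 13233 genes whose mean CPM was at least 1, and log2 fold changes from scaled CPM after adding a prior count of 2. Genes were called past the fold at a log2 fold change of at least 1 in size. With 1 library per group, no test that covers the spread between cultures was run. The read test among the alternatives below compares the reads of single libraries and covers counting error only. Clopper-Pearson (exact) intervals at 95% were computed from the counts. Without molecular identifiers, these and the floor of 3 counts cover counting error alone. Where a library held 1 to 3 counts, the report gives a ratio with its interval, and fitted log2 fold changes of such genes depend on the prior count.

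All 10 genes and Dnmt1 are named. Of each gene list, at most the 4 genes with the largest change past the fold are named, with Irf1 and Irf9 whatever their values (1 gene of the lists is not reported here), and the 5 tested genes with the most similar profile. Genes between Irgm1 and Tgtp2, Olfr56, Gm12185 and Ifngr1 were added by position or role after their values were seen, as were marker genes. The genes described and the lists were chosen with earlier results of these data known. Motifs were searched in RefSeq promoter windows (GRCm38.p6) with Python 3.11.15. The calculations were tested on simulated counts with counting error only, which cannot show how they fare under the spread between cultures. Alternatives were other scalings (DESeq2 1.42.0 size factors, total counts, upper quartile), a prior count of 0.5, no filter or a mean CPM of at least 5, an added read test, and summed Tgtp1 and Tgtp2 counts.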

Additional observations from a re-analysis of the deposited data

Results flagged for a closer look

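For 2 of the genes the DNMT1 siRNA libraries lay on opposite sides of their control siRNA libraries in untreated and OB cells, with both counting intervals clear of 0. Gbp7 had a log2 fold change of 0.81 in siDNMT1 against control and −0.35 in siDNMT1_OB against OB. Iigp1 had 3.06 and −0.53. Each value compares 1 library with 1 library, and the difference between the comparisons was not tested. The Iigp1 value in control rests on 6 counts. Gbp6 also changed side, with 10 against 2 counts in untreated and 29 against 37 in OB cells, but its interval in OB cells included 0 (−1.35 to 0.15).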

How the results depend on the processing

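Of 224 values recomputed under the alternatives, 168 were fold changes of single genes. Of these, 166 lay within the counting interval of the reported value and 2 did not, namely Tgtp1 and Tgtp2 in siDNMT1_OB against siDNMT1, at −0.49 with their counts summed. Within the intervals, Irgm2 in siDNMT1_OB against OB turned from 0.02 to −0.01 with total counts, and at a prior count of 0.5 the fitted value of Gbp6, with 2 counts in control, went from 3.49 to 4.15 in OB against control and from 1.62 to 2.14 in siDNMT1 against control. Summing also put Tgtp2 past the fold in siDNMT1_OB against OB (0.92 to 1.17). The counts of the described genes past the fold (7, 1, 6 and 6 in siDNMT1 against control, siDNMT1_OB against OB, OB against control and siDNMT1_OB against siDNMT1) were the same under each scaling, a prior count of 0.5 and the added read test. With no filter they were 8, 1, 7 and 7, with Gbp6 included, and at a mean CPM of at least 5 they were 6, 1, 5 and 5.

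The counts over all genes depended on the filter. They were 442, 493, 2344 and 1262 in the same order, and 2598, 3273, 6142 and 3866 with no filter (27380 genes), where low counts enter. At a mean CPM of at least 5 (10827 genes) they were 201, 257, 1555 and 738. In siDNMT1_OB against OB the split was 312 higher and 181 lower, 1381 and 1892 with no filter, and 185 and 72 at a mean CPM of at least 5. No scaling moved the median of all genes by over 0.1.

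No paired analysis was run, as each group held 1 library, and no library was left out for the same reason. Depth limits Gbp6 and the control value of Iigp1, and the spread between cultures is unknown for every value.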
